A study of Rattus norvegicus with 6 samples.

Results

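The troponin and tropomyosin isoforms comprise 10 genes in these data: the troponin I genes Tnni1, Tnni2 and Tnni3, the troponin T genes Tnnt1, Tnnt2 and Tnnt3, the troponin C genes Tnnc1 and Tnnc2, and the tropomyosin genes Tpm1 and Tpm2. They were found by gene name among the non-control spots, as 12 probes on 21 spots, of 26456 gene names, 30367 probes and 42877 spots in all. RNA of whole left ventricle was hybridised to 6 Agilent rat arrays in 1 colour. The arrays held 3 samples of male OLETF rats, a strain with type 2 diabetes, aged 27, 28 and 27 weeks, and 3 samples of male LETO rats, its non-diabetic control strain, aged 27, 28 and 28 weeks. Neither strain received a treatment that the labels name, and each strain was sampled in 3 independent experiments. The strains are separate lines, so diabetes and any other difference between them cannot be told apart. The number of arrays limits the precision of every value below.

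Troponin and tropomyosin are the calcium switch of striated muscle. Tropomyosin lies along the actin filament and covers the myosin binding sites, troponin T ties the troponin complex to tropomyosin, troponin I holds the filament off, and troponin C releases it when calcium binds. Troponin I and troponin T each have isoforms for cardiac, slow skeletal and fast skeletal muscle. Of the troponin C genes, Tnnc1 serves both cardiac and slow skeletal muscle and Tnnc2 fast skeletal muscle. The fetal and newborn heart uses the slow skeletal troponin I encoded by Tnni1, and the adult ventricle uses Tnni3, whose product carries an extra amino-terminal stretch that protein kinase A phosphorylates. The adult rodent ventricle otherwise uses Tnnt2, Tnnc1 and Tpm1.

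The isoforms are told apart here by single probes of 60 bases, so the probe letters decide what each value measures. The probes of the fetal and the adult troponin I are shown because the largest strain difference among the members lay between them. The Tnni1 probe lies at chr13:48840073-48840132 of the rn4 build, on the plus strand. The Tnni3 probe lies at chr1:68030210-68030735, also on the plus strand, and spans more genome than its own length, so that its bases come from separate stretches. The files give no exon or UTR annotation of these positions, and no rn4 annotation was used here.
Tnni1: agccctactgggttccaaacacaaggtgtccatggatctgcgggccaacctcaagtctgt
Tnni3: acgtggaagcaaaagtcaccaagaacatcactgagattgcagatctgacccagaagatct

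The troponin C probes are shown because they are the closest pair among the members. The Tnnc2 probe lies at chr3:155807460-155807519 on the minus strand and the Tnnc1 probe at chr16:6642153-6642212 on the plus strand. Of 59 aligned bases 48 were identical, which is 81.4%, and the longest identical run was 17 bases. Capitals mark the 11 aligned bases at which the pair differs.
Tnnc2: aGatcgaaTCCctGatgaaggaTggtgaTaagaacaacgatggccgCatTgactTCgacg
Tnnc1: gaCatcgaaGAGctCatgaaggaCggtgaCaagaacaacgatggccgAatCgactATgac
How much cardiac troponin C RNA binds to the Tnnc2 probe was not tested, and the Tnnc2 values are uncertain for that reason.

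All 12 probes were well above background, by the scanner software's own call, on all 6 arrays, and no spot was saturated. Single arrays are numbered by sample title, and the labels and files number the LETO arrays differently, so statements on 1 LETO array hold for the titled sample. Between 75.5% and 79.8% of spots per array were well above background. A level below is the log2 of the processed spot signal over the 75th percentile of its array. Levels are compared between arrays and not between probes, since probes differ in brightness. All 13 measured markers of ventricular cardiomyocytes, Myh6 and Myl2 among them, were above background, and 0 of the 13 passed the test between strains. The log2 difference, OLETF minus LETO, was positive in 1 of the 13, with a median of -0.11. The atrial light chain Myl7 varied widely within both strains, with levels of 3.85, -0.72 and -0.57 in OLETF 1 to 3 and 2.96, 5.15 and 0.54 in LETO 1 to 3.

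In the limma fit over 18816 genes, 480 genes, or 2.55%, had a Benjamini-Hochberg adjusted p under 0.05. Higher in OLETF were 283, or 1.5%, and lower were 197, or 1.05%. Of the 10 members 1 passed, Tnni1, which rose in OLETF. An unadjusted p under 0.05 was reached by 3 members, Tnni1, Tnnc1 and Tpm2, against 12.4% of all genes. The log2 difference was positive in 2 of the 10 members and in 47.6% of all genes. Its median was -0.15 over the members and -0.01 over all genes tested.

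**Figure D1:**
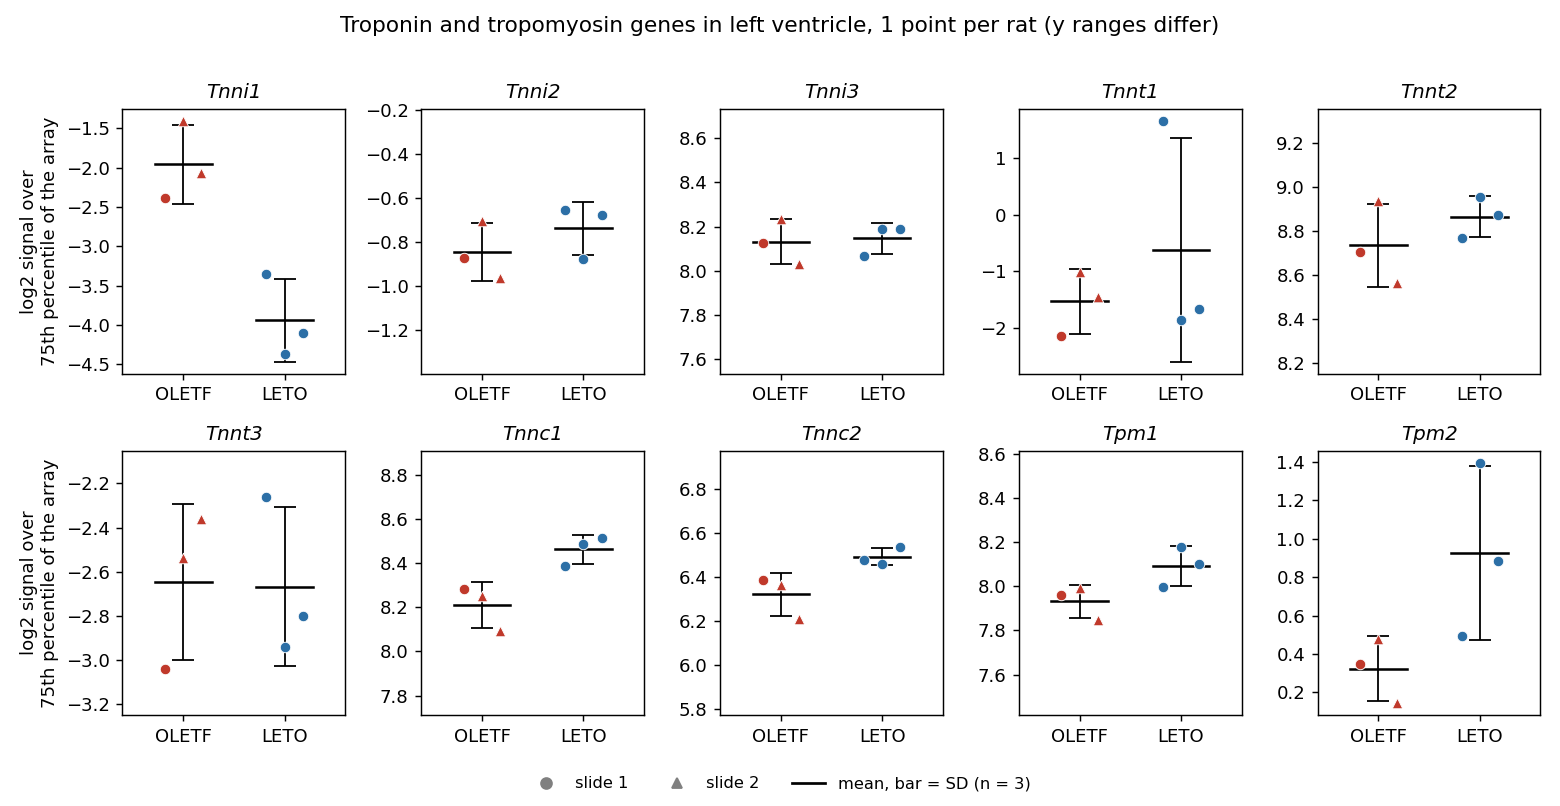
Levels of the 10 genes on each array, as log2 signal over the array's 75th percentile, with 3 OLETF arrays left of 3 LETO arrays and a bar at each mean. The OLETF arrays of Tnni1 lie between -2.39 and -1.41, above all LETO arrays, and the Tnnt1 value of LETO 1 lies far from the other 5.

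Tnni1, the fetal and slow skeletal troponin I, rose about 4-fold in the OLETF ventricle. Its signals were 235, 335 and 292 in OLETF 1 to 3, against 104, 46.2 and 61.5 in LETO 1 to 3. All 3 OLETF arrays were above all 3 LETO arrays. The level averaged -1.96 ± 0.50 in OLETF and -3.94 ± 0.53 in LETO (SD, n = 3 each). The difference was 1.98 on the log2 scale with a standard error of 0.33, a 3.96-fold change, with a 95% interval of 1.22 to 2.75 and a limma adjusted p of 0.0256. In tissue RNA, a change in the number of cells that express a gene and a change in RNA per cell cannot be told apart.

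The arrays lay on 2 slides, with OLETF 1 and all LETO arrays on the first and OLETF 2 and 3 on the second. With the slide as a block the Tnni1 difference was 1.55, with a limma adjusted p of 0.341, and it rests on OLETF 1 alone, whose level was 2.93-fold above the LETO mean on the same slide. In that fit 0.558% of all genes passed. The other members gave -0.13 (Tnni2), -0.02 (Tnni3), -1.52 (Tnnt1), -0.16 (Tnnt2), -0.37 (Tnnt3), -0.18 (Tnnc1), -0.10 (Tnnc2), -0.13 (Tpm1) and -0.58 (Tpm2) with the slide as a block, which are also their differences within the first slide, and 0 of the 9 passed. The Tnni1 call also depended on single arrays. Without OLETF 2 the difference was 1.71 (adjusted p 0.0844), without OLETF 3 it was 2.04 (0.0946), without LETO 2 it was 1.77 (0.0740) and without LETO 3 it was 1.90 (0.0762), all by limma. Without OLETF 1 it was 2.20 (0.0417) and without LETO 1 it was 2.28 (0.0221). Normexp background correction with an offset of 50 gave 1.29, with an adjusted p of 0.0180.

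**Figure D2:**
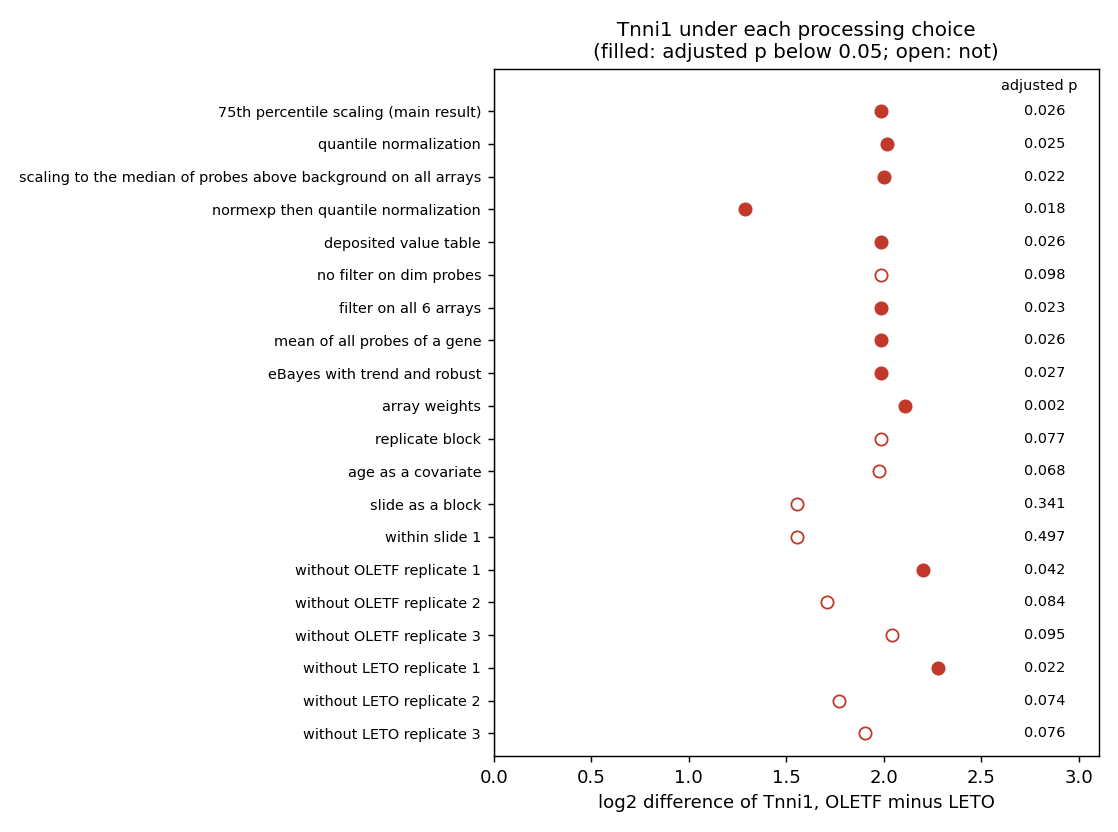
Log2 difference of Tnni1, OLETF minus LETO, under each way of processing, with the limma adjusted p at the right. Filled points have an adjusted p under 0.05 and open points do not. Every setting shown gave a positive difference, from 1.29 to 2.28.

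Tnni3, the adult cardiac troponin I, did not pass the test. Its levels were 8.13, 8.23 and 8.03 in OLETF 1 to 3 and 8.07, 8.19 and 8.19 in LETO 1 to 3, and the strains overlapped. The log2 difference was -0.02 with an interval of -0.23 to 0.20 and an adjusted p of 0.981. Its sign had no fixed direction: quantile normalization gave 0.064, scaling to the median 0.0026 and normexp 0.071. The probe was printed 10 times on each array, with 8 to 10 spots used, and the coefficient of variation over all 10 printed spots was 3.20% to 5.25%.

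Tnni2, the fast skeletal troponin I, had levels of -0.87, -0.70 and -0.96 in OLETF 1 to 3 and -0.66, -0.88 and -0.68 in LETO 1 to 3. These overlapped, and the difference was -0.11 with an interval of -0.36 to 0.15 and an adjusted p of 0.845.

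Among the troponin T genes no difference passed the test, and LETO 1 stood apart from the other arrays in Tnnt1. Tnnt1, the slow skeletal troponin T, was measured by 2 probes. The brighter probe, at chr1:68045083-68045142, had signals of 277, 440 and 448 in OLETF 1 to 3, against 3317, 262 and 331 in LETO 1 to 3. The dimmer probe, at chr1:68043171-68043230, had signals of 69.7, 162 and 136 in OLETF, against 1383, 75.7 and 94.5 in LETO. On both probes LETO 1 was far above the other 5 arrays. The log2 differences were -0.91 with a standard error of 0.90 (adjusted p 0.844) and -1.01 with a standard error of 1.06 (adjusted p 0.858). Without LETO 1 the brighter probe gave 0.23, so the sign rests on that array.

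Tnnt3, the fast skeletal troponin T, had levels of -3.04, -2.54 and -2.36 in OLETF 1 to 3 and -2.26, -2.94 and -2.80 in LETO 1 to 3. Here too LETO 1 was the highest of the LETO arrays, and OLETF 2 and 3 lay above OLETF 1. The difference was 0.02 with an interval of -0.53 to 0.57, an adjusted p of 0.993 and a sign that turned with the slide as a block, to -0.37.

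Fast skeletal muscle markers did not share 1 pattern over the arrays. Of 17 listed markers 16 were on the array and 11 passed the filter on dim probes, and Myh1, Myh2, Pvalb, Myf6 and Myod1 did not. LETO 1 was the highest of the 6 arrays for 5 of the 11, and the lowest of the LETO arrays for 4, Tmod4, Atp2a1, Casq1 and Cacna1s. The widest spread was in Myl1, an essential light chain of fast skeletal muscle picked after its values were seen. Its levels were -5.76, -3.40 and -3.54 in OLETF 1 to 3 and -2.61, -5.26 and -5.80 in LETO 1 to 3, and it was well above background on 2 of the 3 LETO arrays. Summed over the list, linear levels were 18.2 to 19.7 in OLETF and 20.6 to 23.6 in LETO, in multiples of the 75th percentile, and highest in LETO 3. Such a sum follows its brightest probes, here Pygm and Tmod4, with mean levels of 3.57 and 2.11 in OLETF. It does not measure the amount of a cell type. Of the 3 tested slow skeletal markers, LETO 1 was the highest of the 6 arrays for 0, LETO 3 for 2 and OLETF 2 for 1. The part of skeletal muscle RNA in the Tnnt1 values was not tested.

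Tnnt2, the cardiac troponin T, had levels of 8.71, 8.94 and 8.56 in OLETF 1 to 3 and 8.77, 8.95 and 8.87 in LETO 1 to 3. The strains overlapped, and the difference was -0.13 with an interval of -0.41 to 0.15 and an adjusted p of 0.824. After quantile normalization it was -0.0087. A bright probe outside the rule, listed under a transcript name, lies close by at chr13:48884921-48884980. That probe differed by -0.19, with an adjusted p of 0.583 in a limma fit over all probes. Its bases were 75% identical to the dimmer Tnnt1 probe and 66.7% to the Tnnt3 probe. How much of its RNA binds to those probes was not tested.

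**Figure D3:**
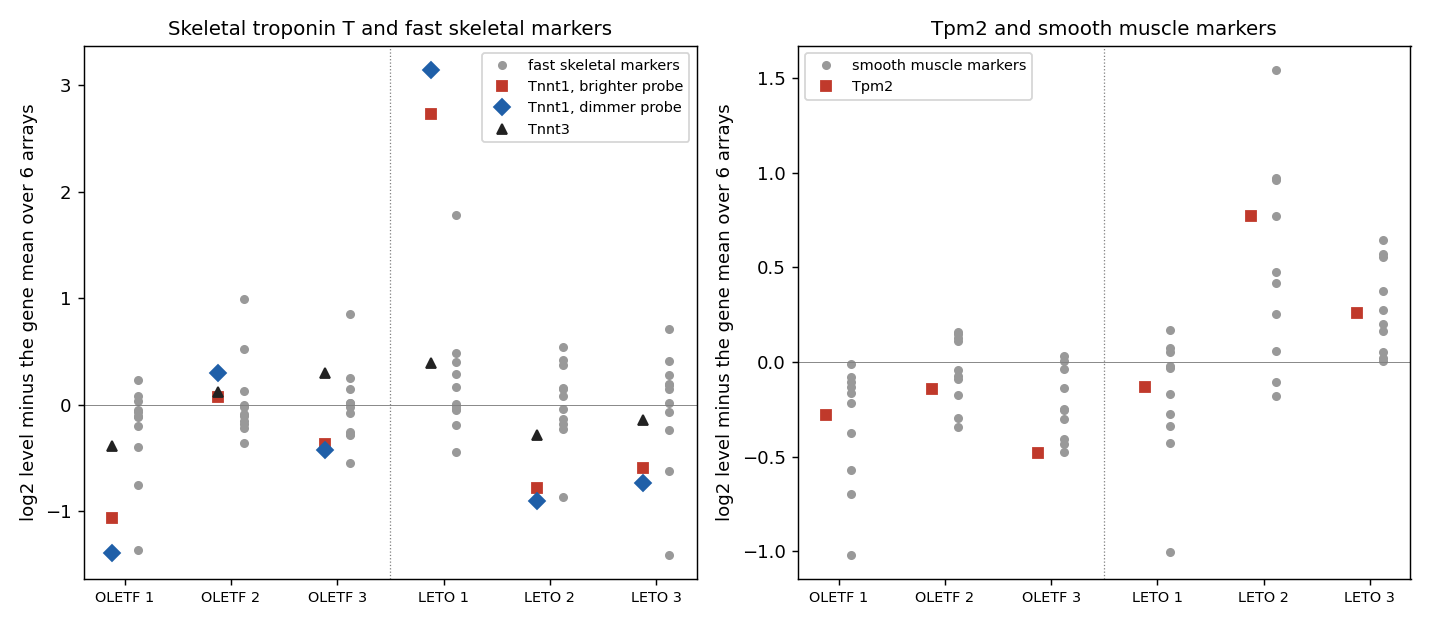
Log2 level of each gene minus its mean over the 6 arrays, with OLETF arrays left of LETO arrays and all tested markers of each list in grey. In the left panel both Tnnt1 probes are highest in LETO 1, as are 5 of 11 fast skeletal markers, and in the right panel Tpm2 is highest in LETO 2, as are 7 of 10 smooth muscle markers.

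Neither of the troponin C genes passed the test over all genes. Tnnc1, the cardiac and slow skeletal troponin C, had levels of 8.28, 8.25 and 8.09 in OLETF 1 to 3 and 8.39, 8.49 and 8.51 in LETO 1 to 3. All OLETF arrays were below all LETO arrays. The difference was -0.25 with a standard error of 0.09, an unadjusted p of 0.0287 and an adjusted p of 0.305 by limma. After quantile normalization it was -0.096 (adjusted p 0.803) and with normexp -0.13 (0.593). With arrays weighted by their quality it was -0.34 (0.0368), in a fit that called 875 genes higher and 825 lower.

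Tnnc2, the fast skeletal troponin C, had levels of 6.39, 6.36 and 6.21 in OLETF 1 to 3 and 6.48, 6.46 and 6.53 in LETO 1 to 3. These did not overlap either, and the difference was -0.17 with an interval of -0.38 to 0.04 and an adjusted p of 0.528.

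Tpm1, the alpha-tropomyosin of the ventricle, was measured by 2 probes. The brighter, at chr8:71339998-71340057, had levels of 7.96, 7.99 and 7.85 in OLETF 1 to 3 and 7.999, 8.18 and 8.10 in LETO 1 to 3. The difference was -0.16 (adjusted p 0.587), and on the dimmer probe, at chr8:71331669-71331728, it was -0.22 (adjusted p 0.394). After quantile normalization the brighter probe gave -0.088. On both probes the OLETF arrays were below the LETO arrays. The probes are listed under different transcripts of Tpm1, and which forms of its RNA each one measures was not tested.

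Tpm2, the beta-tropomyosin of slow skeletal and smooth muscle and of the fetal heart, had the second largest difference among the members whose sign held without each array in turn. Its signals were 1561, 1236 and 1355 in OLETF 1 to 3, against 1486, 2507 and 1949 in LETO 1 to 3. As levels these were 0.35, 0.48 and 0.14 in OLETF and 0.49, 1.396 and 0.88 in LETO, so that the strains did not overlap but LETO 1 lay next to OLETF 2. The difference was -0.60 with a standard error of 0.22, a ratio of 0.659, an unadjusted p of 0.0308 and an adjusted p of 0.317. With array weights it was -0.74, with a limma adjusted p of 0.0373, in a fit that called 875 genes higher and 825 lower. In that fit LETO 1 had the smallest weight, 0.205, against 3.00 for LETO 3.

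A dim probe outside the rule, listed under a transcript name and described in the files as tropomyosin beta chain, was picked after its values were seen. It lies at chr5:59998176-59998235, within the span of the Tpm2 probe at chr5:59997963-59998563. Its signals were 32.7, 24.2 and 24.8 in OLETF 1 to 3, against 76.3, 44.4 and 48.2 in LETO 1 to 3, and it was well above background on 2 of the 3 OLETF arrays and on all LETO arrays. It therefore passed the filter on dim probes through LETO alone, and its difference of -1.13 is a description, with no test. With the slide as a block the difference was -1.01 and with normexp it was -0.35.

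Tpm2 was highest in LETO 2, and so were 7 of the 10 tested smooth muscle markers. Of the others Des was highest in LETO 1, Myocd in LETO 3 and Smtn in OLETF 2, and Smtn was lowest in LETO 2. Of 11 listed smooth muscle markers 10 were tested, 0 passed, 2 had a positive difference and the median log2 difference was -0.49. An unadjusted p under 0.05 was reached by 4 of the 10, against 12.4% of all genes. Their summed linear level was 63.0 to 68.1 in OLETF and 74.6 to 76.8 in LETO, and Cnn1 did not pass the filter on dim probes. That sum follows its brightest probes, Des and Smtn, with mean levels of 5.23 and 3.99 in OLETF. Des is also listed with the Z-disc genes, so the sum does not measure smooth muscle alone. Myh11, the smooth muscle myosin heavy chain, picked after its values were seen, had levels of 0.00, 0.60 and 0.29 in OLETF 1 to 3 and 0.27, 1.66 and 1.34 in LETO 1 to 3. The part of vessel smooth muscle in the Tpm2 values was not tested.

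Over the 10 members, 5 had strains that did not overlap, against 17.4% of all genes: Tnni1 above, and Tnnc1, Tnnc2, Tpm1 and Tpm2 below. The members below changed with the scaling. Quantile normalization left Tpm2 below, and put Tnni3 above beside Tnni1. Scaling to the median left Tnnc1 and Tnnc2 below, and normexp left Tnnc2 and Tpm2 below. Tnni1 was above under each of these scalings.

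Ratios of isoforms within an array compare the fetal, slow or fast form with the adult ventricular form without any scaling between arrays. Each is given as log2 relative to the LETO mean, since the level of a ratio of 2 probes has no meaning of its own. Tnni1 over Tnni3 was 1.57, 2.44 and 1.98 in OLETF 1 to 3 and 0.67, -0.47 and -0.20 in LETO 1 to 3. All OLETF arrays were above all LETO arrays, by 2.00 on average, or 4.00-fold. With normexp the difference was 1.22, and within the first slide it was 1.57, with 1 OLETF array and an exact permutation p of 0.25, the smallest possible there. The exact two-sided permutation p was 0.1, the smallest that 3 against 3 arrays allow, and 0.2 after adjustment over the 6 ratios.

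Tpm2 over Tpm1 was -0.44, -0.34 and -0.53 in OLETF 1 to 3 and -0.34, 0.39 and -0.05 in LETO 1 to 3. OLETF 2 and LETO 1 were nearly equal, and the difference was -0.44 with an exact permutation p of 0.1. Tnnc2 over Tnnc1 differed by 0.08 with an exact p of 0.1, and by -0.027 after quantile normalization. Tnni2 over Tnni3 differed by -0.09 (exact p 0.4), Tnnt3 over Tnnt2 by 0.15 (exact p 0.6) and Tnnt1 over Tnnt2 by -0.78 (exact p 0.8), or 0.41 without LETO 1. The difference in isoform ratio was largest for troponin I, and no ratio could reach 0.05 in this design.

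**Figure D4:**
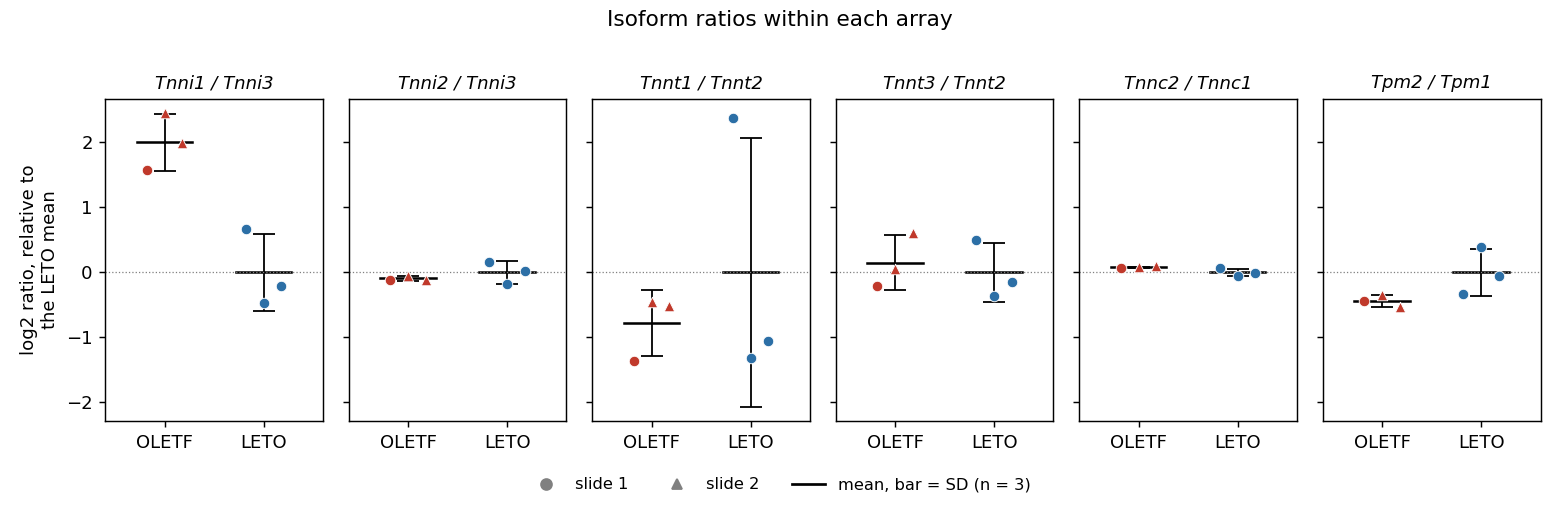
Log2 ratio of each fetal, slow or fast isoform to the adult ventricular isoform on each array, relative to the LETO mean, with OLETF arrays left of LETO arrays. Tnni1 over Tnni3 is 1.57 to 2.44 in OLETF and -0.47 to 0.67 in LETO.

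The troponin I and troponin T genes lie in pairs in the rat genome, by the order of genes in RefSeq's GRCr8 annotation. Tnni3 and Tnnt1 are neighbours with 0 protein-coding genes between them, Tnni1 and Tnnt2 have 1 between them, Lad1, and Tnni2 and Tnnt3 have 5. The partner of Tnni1 is Tnnt2, which differed by -0.13 where Tnni1 differed by 1.98. The partners Tnni3 and Tnnt1 differed by -0.02 and -0.91, and Tnni2 and Tnnt3 by -0.11 and 0.02.

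The genes whose levels were most like those of Tnni1 over the 6 arrays, among 18054 genes above background on all of them, were Lyplal1 (Pearson r 0.995), a lysophospholipase-like gene, Ncbp1 (0.994), a subunit of the nuclear cap-binding complex, and the unnamed probe A_44_P468573 (0.993). Their strain differences were 0.30, 0.13 and 0.93. The points share the same 6 RNA samples and the same split into strains.

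The other thin filament genes were read as a list of 16 tested genes of the actin filament and its caps. Of these 0 passed, 7 had a positive difference and the median was -0.03. An unadjusted p under 0.05 was reached by 3 of the 16, against 12.4% of all genes. The cardiac actin Actc1 differed by -0.11, the skeletal actin Acta1, which the fetal heart also uses, by -0.14, and the tropomyosins Tpm3 and Tpm4 by 0.04 and -0.10. The smallest p belonged to Neb, the giant ruler protein nebulin, at 0.51 (adjusted p 0.147), and to Tmod4, a tropomodulin that caps the filament, at -0.38 (0.232).

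**Figure D5:**
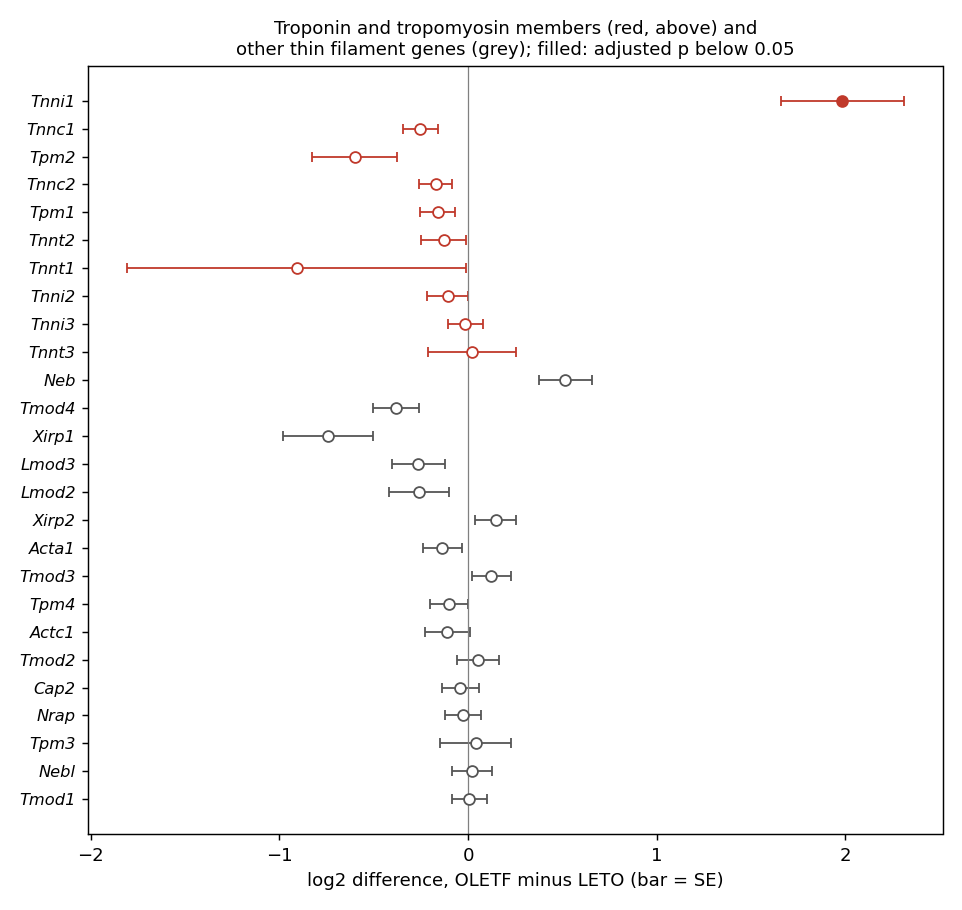
Log2 difference, OLETF minus LETO, with its standard error, for the 10 members and the other tested thin filament genes. Tnni1, at 1.98, is the only gene shown whose adjusted p was under 0.05.

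Among 17 tested genes of the thick filament, titin and the Z-disc 0 passed and 5 were positive. The myosin heavy chains Myh6 and Myh7, of which Myh7 is the fetal form in the rat ventricle, differed by -0.06 and -0.10. Myoz2, which binds calcineurin at the Z-disc, had the smallest p of that list, at -0.47 (adjusted p 0.0584). Of 10 tested fetal contractile and stress genes 0 passed and 0 were positive, with a median of -0.37. An unadjusted p under 0.05 was reached by 3 of the 10, against 12.4% of all genes. With the slide as a block the median was -0.14, and 2 were positive, Myl7 (0.97) and Sln (2.11). Acta2 and Tagln, which smooth muscle also expresses, differed by -0.44 and -0.78.

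The regulators of these genes and proteins were also read from the fit. Of 15 kinases and phosphatases that act on troponin or tropomyosin, or in their pathways, 0 passed and 8 were positive, with Pak1 at 0.37 (adjusted p 0.0993). Of 17 muscle transcription regulators 0 passed and 6 were positive. Tead1, which binds the MCAT element of muscle genes, differed by -0.41 (adjusted p 0.123), and Tbx5, a T-box factor of heart development, by 0.42 (0.148). Of 6 splicing regulators 0 passed, with Mbnl1 at 0.15 (adjusted p 0.562). At an unadjusted p under 0.05 these lists held 1, 5 and 0 genes, against 12.4% of all genes.

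Markers of other cells were read beside Tnni1. None of the tested markers of atrial myocytes (6 genes), the conduction system (5), fast skeletal muscle (11) or slow skeletal muscle (3) passed the test. Their lists held 1, 1, 4 and 1 genes at an unadjusted p under 0.05, against 12.4% of all genes. Summed linear levels of the atrial list were 132 to 151 in OLETF and 148 to 183 in LETO, and those of the slow skeletal list were 1.80 to 2.26 in OLETF and 2.42 to 2.87 in LETO. The atrial sum followed mainly Myl4 (mean level 7.02 in OLETF) and the slow skeletal sum mainly Myh7b (0.90). Neither sum measures the amount of a cell type. The median log2 difference of the atrial list was -0.47, with 0 of 6 genes positive. With the slide as a block that median was 0.0083, with 3 of 6 positive. The slow skeletal marker Mybpc1 did not pass the filter on dim probes. Of the 3 tested red cell markers Slc4a1, the anion exchanger of red cells, rose in OLETF by 3.19 (adjusted p 0.00589). With the slide as a block Slc4a1 gave 2.88 and its call was lost (adjusted p 0.116). The haemoglobin genes Hba-a2 and Hbb went the other way, at -0.94 (limma adjusted p 0.304) and -2.22 (0.411), and did not pass. Alas2, Epb42 and Hemgn did not pass the filter on dim probes. The summed level of the red cell list, led by Hba-a2, was 6.64 to 7.71 in OLETF and 6.26 to 22.4 in LETO.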

How the data were processed

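The deposited scanner files give each spot's processed intensity on a linear scale, from which Agilent Feature Extraction had subtracted and detrended the background, per the file headers. Those headers give version 10.7.3.1 of that software and the submitters' processing notes give 9.1. A value table was also deposited and holds the same intensity divided by a constant per array, with no log and no centring. Its column medians were 0.154, 0.157 and 0.159 in OLETF and 0.163, 0.154 and 0.158 in LETO. Strains, ages and replicate numbers follow the labels, the numbers by title, although another label of LETO 2 calls it replicate 1 and the deposited LETO files carry other numbers than the titles.

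Control spots and outlier spots, 260 to 356 per array, were left out, which removed 17 of 30367 probes. Spots of a probe were averaged as log2 of the deposited intensity, and the array's 75th percentile over probes was subtracted. The fit took the 21484 probes that exceeded background clearly on every array of OLETF, of LETO or of both. The brightest tested probe stood for a gene. Strains were compared with limma 3.58.1 in R 4.3.3 (lmFit, eBayes) and Benjamini-Hochberg adjustment over 18816 genes at 0.05. Ratios were tested by exact permutation. All 12 member probes matched their symbols through RefSeq accessions, and 140 of 157 list symbols were found. Probe sequences and rn4 positions are those of the files. Probes were aligned without gaps over at least 30 bases. List genes were named from those called, or else up to 2 with the smallest p, beside Acta1, Actc1, Tpm3, Tpm4, Myh6 and Myh7; Myl1 and Myh11 were named after their values were seen. Other software was the R package data.table (version 1.17.8), Python 3.11.15, pandas 2.3.3, numpy 2.4.6 and matplotlib 3.10.9.

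The members, lists, tests and alternatives were chosen with earlier results of these data known. The alternatives were other scalings, background corrections, filters, probe rules, variance models and blocks, and leaving out each array. Correlations of deviations between arrays of the same replicate number, by title, were -0.09, -0.14 and -0.01. With 3 arrays per strain and LETO numbers that differ between labels, these values cannot decide whether the arrays were paired.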

Additional observations from a re-analysis of the deposited data

How the results depend on the processing

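Tnni1 stayed higher in OLETF under every alternative run. Its call was lost with no filter on dim probes (1.98, adjusted p 0.0979), with a replicate block (1.98, 0.0771), with age as a covariate (1.97, 0.0676), with the slide as a block (1.55, 0.341) and within slide 1 (1.55, 0.497). Leaving out each array gave 1.71 to 2.28, with limma adjusted p of 0.0221 to 0.0946, and the call was lost in 4 of those 6 fits. The replicate block rests on the numbers in the sample titles, and whether these pair the arrays could not be decided. Tnni3, at -0.02, was positive after quantile normalization (0.064), median scaling (0.0026), normexp (0.071) and age adjustment (0.030), and from -0.068 to 0.034 when arrays were left out. Tnnt3 was negative with age (-0.054), the slide as a block and within slide 1 (-0.37 each), and from -0.12 to 0.22 when arrays were left out. Tnnt1 was 0.027 with array weights and from -1.52 to 0.23 when arrays were left out. With array weights Tnnc1 (-0.34) and Tpm2 (-0.74) passed the threshold. The ratio Tnnc2 over Tnnc1 was -0.027 after quantile normalization. Tnnt3 over Tnnt2 was -0.21 within slide 1 and from -0.079 to 0.40 when arrays were left out, and Tnnt1 over Tnnt2 from -1.44 to 0.41. Genes called higher and lower numbered 149 and 91 without the filter, 875 and 825 with array weights, and 52 and 53 with the slide as a block. With the replicate block 166 were higher. Leaving out arrays gave 126 to 375 higher and 87 to 239 lower. The cause of these changes was not tested. Tnni2, Tnnt2, Tnnc2 and Tpm1 kept their sign and stayed past no threshold under all alternatives run.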
